A study of Mus musculus with 12 samples.

Results

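Phf11a and Phf11d are mouse genes of the PHD finger protein 11 family, and they were described here through every array probe whose annotated symbol, or current alias, is one of them. These 2 genes, of 10183 named by a probe, had 4 of the 45281 probes on the array. ILMN_2696491 and ILMN_2696492 report Phf11a, and ILMN_2684848 and ILMN_2827780 report Phf11d. The genes were chosen with earlier results of these data known, in particular the different responses of the lines to interferon. Their values in the 4 groups are therefore a description, without a p-value.

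RNA from immortalized embryonic fibroblasts of the mouse was hybridized to 12 Illumina mouse BeadChip arrays, 3 for each of 4 groups. The groups were untreated Rictor+/+ cells, Rictor+/+ cells 24 hours after 2500 U/ml of mouse interferon-alpha (IFN-alpha), untreated Rictor-/- cells, and Rictor-/- cells with the same dose and time. Rictor is needed for mTOR complex 2, which phosphorylates Akt, and the study asks what it contributes to the transcription that IFN-alpha starts. As far as the labels tell, each genotype is 1 cell line, so line and genotype cannot be told apart, and separate cultures behind a group's arrays are not stated. A treatment field also names small interfering RNAs against Rictor for all samples and so disagrees with a knockout; the genotype fields were followed.

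The PHD finger is a zinc-binding fold found in many nuclear proteins, several of which read histone tails. Human PHF11 has been linked to asthma and immunoglobulin E levels, has been described as a partner of NF-kB at cytokine genes of T cells, and binds replication protein A at broken DNA ends. The mouse has several related Phf11 genes side by side on chromosome 14, next to the histone methyltransferase gene Setdb2. Type I interferon acts through its receptor and the kinases Jak1 and Tyk2 on transcription factors that include Stat2 and Irf9, which act at interferon-stimulated response elements in promoters.

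In the GRCm38.p6 assembly of RefSeq, Phf11a lies at chr14:59276913-59297564 and Phf11d at chr14:59347407-59365490, with 49842 bases between them that hold Phf11b, and Phf11c lies beyond Phf11d. The promoters of both genes are shown because the signals of both were higher with IFN-alpha in Rictor+/+ cells. Each window runs from 250 bases before to 50 bases after an annotated start, on the minus strand, at chr14:59297473-59297772 for Phf11a and chr14:59365441-59365740 for Phf11d. Capitals mark matches to GAAANNGAAA, the core of the interferon-stimulated response element, or to GAAANGAAA, 2 GAAA words with 1 base between them in place of 2.
Phf11a: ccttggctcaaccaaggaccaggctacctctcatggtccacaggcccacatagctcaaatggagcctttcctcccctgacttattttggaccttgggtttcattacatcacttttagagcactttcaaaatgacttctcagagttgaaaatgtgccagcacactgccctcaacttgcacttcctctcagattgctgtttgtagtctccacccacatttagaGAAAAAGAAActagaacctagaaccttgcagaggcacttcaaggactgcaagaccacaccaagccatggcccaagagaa
Phf11d: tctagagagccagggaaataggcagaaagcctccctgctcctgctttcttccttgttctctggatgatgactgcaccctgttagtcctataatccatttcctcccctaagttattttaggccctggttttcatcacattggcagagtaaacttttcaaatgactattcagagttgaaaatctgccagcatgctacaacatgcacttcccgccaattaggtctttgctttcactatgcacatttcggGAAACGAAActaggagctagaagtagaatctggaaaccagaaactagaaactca

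The Phf11a window held 1 match to GAAANNGAAA, GAAAAAGAAA, at bases -29 to -20 from the start. That start lies inside the annotated gene, which reaches to 59297564, so the match lies within the gene's outer bounds. The Phf11d window held none, but had 1 match to GAAANGAAA, GAAACGAAA, from base -4 to base 5. Both strands were searched; GAAANNGAAA was present in 3.44% and GAAANGAAA in 3.17% of 32851 RefSeq promoter windows of this length. The palindrome TTCNNNGAA was found in neither window and in 8.3% of all windows. The Phf11a and Phf11d windows were 73.6% identical over 182 aligned columns. The window of Phf11b, which no named probe reports, was 98.2% identical to that of Phf11a over 279 columns. It held the same GAAAAAGAAA at bases -50 to -41, also within the outer bounds of its gene. The Phf11c window held none of the 3 motifs. The probe sequences are not used here, so how far transcripts of near-identical family members share a probe's signal is not known. A match describes letters in a window and does not show that a factor binds there.

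The total signal was 39160400 to 62338100 on 11 arrays and 21292300 on array 12, an IFN-treated Rictor-/- array. The arrays fell into 6 with a background of 210.7 to 240.3 and 6 with 107.6 to 127.9, each set holding all 4 groups. The high set held Rictor+/+ arrays 1, 2, 5 and 6 and Rictor-/- arrays 3 and 4. The low set held Rictor+/+ arrays 9 and 10 and Rictor-/- arrays 7, 8, 11 and 12. Comparisons of the lines are thus partly mixed with the background set. Levels below are log2 intensities after background correction and quantile normalization. A probe was above background on an array when its probability under the background was below 0.01. The lowest level called above background was 5.67 to 6.55 on 11 arrays and 6.87 on array 12. The single Rictor probe had levels of 5.06 to 6.89 over all groups, around the limit of detection, and its place relative to the deleted part is not known, so it checks nothing about the knockout. Of 14 fibroblast markers 13 or 14 were above background on all arrays of each group. In Rictor-/- against Rictor+/+ cells 9 of them were lower and 1 higher without IFN-alpha, and 8 lower and 1 higher with it; of all probes 8.09% were lower and 8.04% higher without it, and 10.5% and 8.65% with it. Their part in the Phf11 values was not tested.

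Phf11a was detected only in Rictor+/+ cells that had received IFN-alpha. The intensities of ILMN_2696491 on the 3 untreated Rictor+/+ arrays were 237, 234.5 and 87.2, and those on the IFN-treated Rictor+/+ arrays were 3864.1, 2790 and 3107.3. On the Rictor-/- arrays they were 213.5, 118.2 and 127.6 without and 286.1, 150.4 and 147.8 with IFN-alpha. The IFN-treated Rictor+/+ arrays stood apart from the other 9, which lay at the background of their own arrays. The normalized log2 level of this probe was 5.10 ± 0.41 (SD, n = 3) in untreated and 11.31 ± 0.47 in IFN-treated Rictor+/+ cells. In Rictor-/- cells it was 5.14 ± 0.12 without and 5.88 ± 0.46 with IFN-alpha, with 0 of 3 arrays above background in both groups.

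The second Phf11a probe gave the same picture. ILMN_2696492 had intensities of 188.7, 226.3 and 103.9 in untreated Rictor+/+ cells and of 3585.9, 2735.3 and 2935.7 with IFN-alpha. In Rictor-/- cells it had 172.5, 152.6 and 115.4 without and 226.4, 132.7 and 117 with IFN-alpha. Again only the IFN-treated Rictor+/+ arrays were above background and no other array overlapped them. Its log2 levels were 4.93 ± 0.07, 11.23 ± 0.44, 5.17 ± 0.51 and 5.04 ± 0.08 (SD, n = 3) in untreated and IFN-treated Rictor+/+ and untreated and IFN-treated Rictor-/- cells. The 2 probes correlated at r = 0.982 over the 12 arrays, which describes mainly the contrast of 3 arrays with the rest.

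Because Phf11a was below background in the other groups, its changes have only lower limits. These were computed against the lowest level above background on each array, or the probe's own level where that was higher. In Rictor+/+ cells IFN-alpha raised the signal at least 35.1-fold by ILMN_2696491 and at least 33.4-fold by ILMN_2696492. On the log2 scale these limits are 5.13 and 5.06, and they were 3.61 and 3.54 with no background correction and 3.80 and 3.73 in the deposited values. Both probes passed the filter on dim probes through the IFN-treated Rictor+/+ arrays alone. Under IFN-alpha the signal in Rictor-/- cells was lower than in Rictor+/+ cells by at least 31.4-fold and 29.9-fold for the same probes. For the response of Rictor-/- cells, and for the untreated lines against each other, no fold is given since both groups were below background.

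Phf11d was above background in IFN-treated cells of both lines, at a much lower level in Rictor-/- cells. ILMN_2827780, its brighter probe, was above background on all 12 arrays. Its intensities were 292, 320.7 and 198.1 in untreated Rictor+/+ cells and 17675.9, 15197.8 and 8834.4 with IFN-alpha. In Rictor-/- cells they were 334.4, 179.4 and 170.9 without and 1585.8, 1100.1 and 321.1 with IFN-alpha. The untreated lines overlapped, whereas on the log2 scale every IFN-treated array lay above every untreated one and every IFN-treated Rictor+/+ array above every IFN-treated Rictor-/- array. The lowest of the IFN-treated Rictor-/- intensities, 321.1, came from array 12, whose total signal was low; after normalization that array had 9.43 against 10.02 and 9.88 on arrays 4 and 8.

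The log2 level of ILMN_2827780 was 6.51 ± 0.15 (SD, n = 3) in untreated and 13.51 ± 0.31 in IFN-treated Rictor+/+ cells. It was 6.54 ± 0.53 in untreated and 9.78 ± 0.30 in IFN-treated Rictor-/- cells. The response was thus 7.0 ± 0.28 (SE) on the log2 scale in Rictor+/+ cells, or 128-fold with a 95% interval of 83.9-fold to 195-fold. In Rictor-/- cells it was 3.23 ± 0.28, or 9.39-fold with an interval of 6.15-fold to 14.3-fold. These intervals cover the spread between arrays under 1 processing. The responses were 5.62 and 2.08 with no background correction and 5.57 and 2.07 in the deposited values, which lies outside both intervals. The difference of the responses, Rictor-/- minus Rictor+/+, was -3.77 ± 0.40. Under IFN-alpha the level in Rictor-/- cells was 13.3-fold lower (95% interval 8.69-fold to 20.3-fold).

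Without IFN-alpha the lines differed in Phf11d by 0.04 ± 0.28 on the log2 scale, with a 95% interval of -0.57 to 0.65. The interval includes up to 1.57-fold more in Rictor-/- cells, and the levels were close to the limit of detection. The value was 0.64 in the arrays of high background and -0.24 in those of low background, so its sign was not stable. The response was 7.13 and 6.75 in Rictor+/+ cells and 2.86 and 3.42 in Rictor-/- cells within the same sets, which hold 1 or 2 arrays per group.

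The second Phf11d probe, ILMN_2684848, was below background on all 6 untreated arrays and above it on all 6 IFN-treated ones. Its intensities in IFN-treated cells were 10510.5, 9263.5 and 6275.9 for Rictor+/+ and 867.4, 754.1 and 178.3 for Rictor-/-. In untreated cells they were 207.3, 245.8 and 131.7 for Rictor+/+ and 213.5, 135.1 and 104.9 for Rictor-/-. The IFN-treated arrays of the lines did not overlap after normalization, with 12.65 to 13.01 against 7.68 to 9.23. Its signal rose at least 98.4-fold in Rictor+/+ and at least 5.85-fold in Rictor-/- cells. Under IFN-alpha it was 18.1-fold lower in Rictor-/- cells (log2 difference -4.18 ± 0.34, 95% interval 10.9-fold to 30.1-fold), and the log2 difference was -3.71 without array 12.

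**Figure D1:**
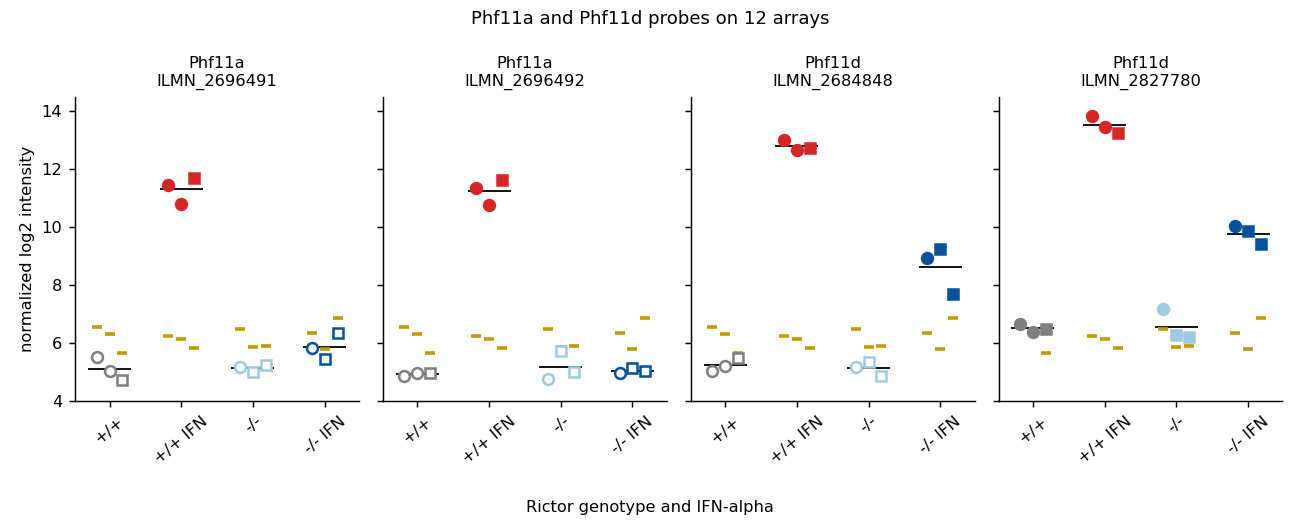
Normalized log2 intensity (y axis) of the 2 Phf11a and 2 Phf11d probes on each array, by Rictor genotype and IFN-alpha (x axis). Filled symbols are above background and open symbols are not, circles are arrays of high and squares of low background, black lines are group means, and gold dashes are each array's lowest level above background; Phf11a is filled only in IFN-treated Rictor+/+ cells, and Phf11d has an intermediate level of 9.43 to 10.02 (ILMN_2827780) in IFN-treated Rictor-/- cells.

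All 4 member probes were called higher by limma (adjusted p under 0.05) in IFN-treated against untreated Rictor+/+ cells, where 2.46% of the 20865 tested probes were. In Rictor-/- cells both Phf11d probes and neither Phf11a probe were called higher, against 0.882% of all probes called higher and 0.0335% called lower. All 4 were called with a smaller response in Rictor-/- cells, against 0.417%, and lower in Rictor-/- cells under IFN-alpha, against 10.5% called lower and 8.65% called higher. Without IFN-alpha 0 of 4 were called, against 8.04% of probes called higher and 8.09% called lower. The genes were chosen from these contrasts, so nothing is read from these counts. In bulk RNA, fewer responding cells and less RNA per cell cannot be told apart.

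The 2 genes differed in how much signal was left in IFN-treated Rictor-/- cells. Phf11a was at background there, and its lower limits of 31.4-fold and 29.9-fold stand beside the measured 13.3-fold and 18.1-fold of Phf11d. Whether the loss differs between the genes was not tested. With no background correction the limits for Phf11a were -3.54 and -3.47 on the log2 scale and the Phf11d differences -3.51 and -3.70. Limits that close to measured values leave the order of the genes undetermined under that processing. Probes of the same gene correlated at r = 0.982 and 0.993 over the 12 arrays, and probes of different genes at 0.873 to 0.923. These points share arrays and groups.

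Among all probes called higher in IFN-treated Rictor+/+ cells, 327 of 514 were above background on at least 1 array of every group. Their median log2 response was 1.78 in Rictor+/+ and 0.84 in Rictor-/- cells. Within this set 3 probes had a larger response in Rictor+/+ cells than Phf11d probe ILMN_2827780. As a share of the Rictor+/+ log2 response, Rictor-/- cells showed 46.2% for this probe and a median of 47.5% for the set (quartiles 25.1% and 78.7%). The share for Phf11d was thus near the middle of the set, although its response was among the largest. It was 37.0% with no background correction and 37.2% in the deposited values, where the medians were 46.8% and 48.1%. With median scaling the order turned, with 41.2% against a median of 31.5%. The set was picked by its call in Rictor+/+ cells in these same data, so its shares may be too low. Phf11d was itself chosen with these contrasts known.

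**Figure D2:**
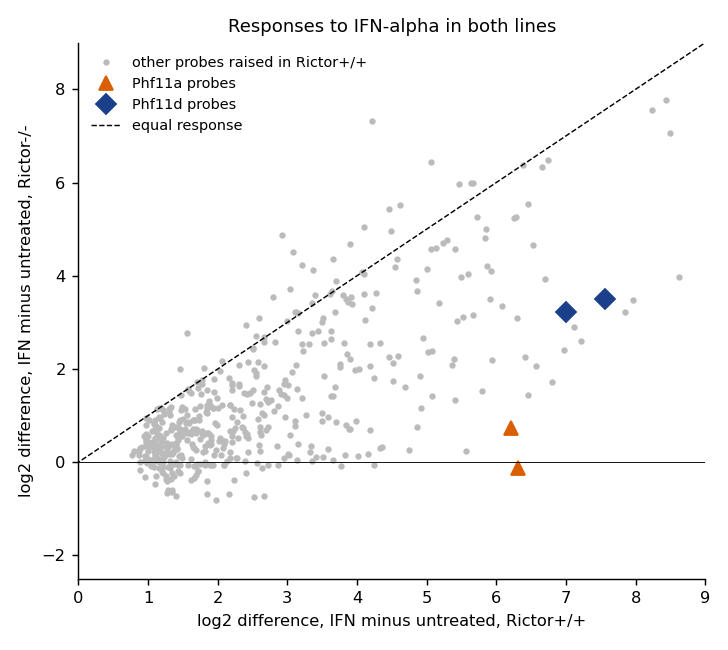
Fitted log2 difference between IFN-treated and untreated cells in Rictor+/+ (x axis) and Rictor-/- cells (y axis) for the 514 probes called higher in Rictor+/+ cells. Grey points are other probes, triangles Phf11a, diamonds Phf11d, and the dashed line marks equal responses; the Phf11d probes lie at 3.50 and 3.23 on the y axis and the Phf11a probes at 0.74 and -0.13, fitted from signals below background.

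Genes whose pattern over the 12 arrays was most like that of each probe were named by Pearson correlation of log2 levels among 8275 other named genes. For ILMN_2696492 of Phf11a they were BC147527 (r = 0.992), Oas1a (0.99), Ifi213 (0.988), Ifi214 (0.988) and Slfn2 (0.985). For ILMN_2696491 they were Ifi213 (0.988), BC147527 (0.986), Oas1a (0.984), the chemokine gene Cxcl11 (0.984) and the nuclear body gene Sp100 (0.983). Oas1a belongs to the oligoadenylate synthetases, which act against viral RNA, and Slfn2 restrains the proliferation of T cells. Each gene was represented by its brightest kept probe. Those probes of the 7 genes had fitted log2 responses of 3.41 to 5.56 in Rictor+/+ cells and of -0.08 to 0.32 in Rictor-/- cells. Another probe of Ifi213, ILMN_2526938, had 6.454 and 1.444, so the likeness holds for the probe compared and not for every probe of a gene. Of the 7 compared probes, that of Ifi213 was the one measured in all groups. It had 7.74 to 8.02 in untreated and 11.46 to 12.36 in IFN-treated Rictor+/+ cells, and 8.07 to 8.27 and 8.04 to 8.64 in Rictor-/- cells.

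The genes most like Phf11d were different ones. For ILMN_2827780 they were Oas1g (r = 0.996), Oas2 (0.996), the immunoproteasome subunit gene Psmb9 (0.993), Ifi207 (0.989) and Trafd1 (0.988). For ILMN_2684848 they were Oas2 (0.994), Psmb9 (0.992), Ifi205 (0.99), Oas1g (0.99) and Oas1b (0.989). Trafd1 encodes a regulator of innate immune signalling. The brightest kept probes of the 7 genes had fitted log2 responses of 2.81 to 7.96 in Rictor+/+ and of 1.11 to 3.92 in Rictor-/- cells. Other Oas1g probes raised in Rictor+/+ cells had 2.855 and 0.357 (ILMN_1255890), 3.031 and 0.153 (ILMN_2816196), and 8.623 and 3.964 (ILMN_2628822) in the lines. Oas2, Oas1b and Ifi207 were below background on all untreated arrays, and Ifi205 on the untreated Rictor-/- ones, so their fitted values are no measured sizes. Trafd1 was bright in untreated cells as well, at 10.79 to 11.42 in Rictor+/+ and 10.72 to 11.36 in Rictor-/- cells, and rose to 13.73 to 14.01 and 11.77 to 12.37. No gene was in the lists of both Phf11a and Phf11d, where a single probe stood for each gene. These correlations carry no p-value, since the points are 4 groups of 3 arrays that share their treatment.

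**Figure D3:**
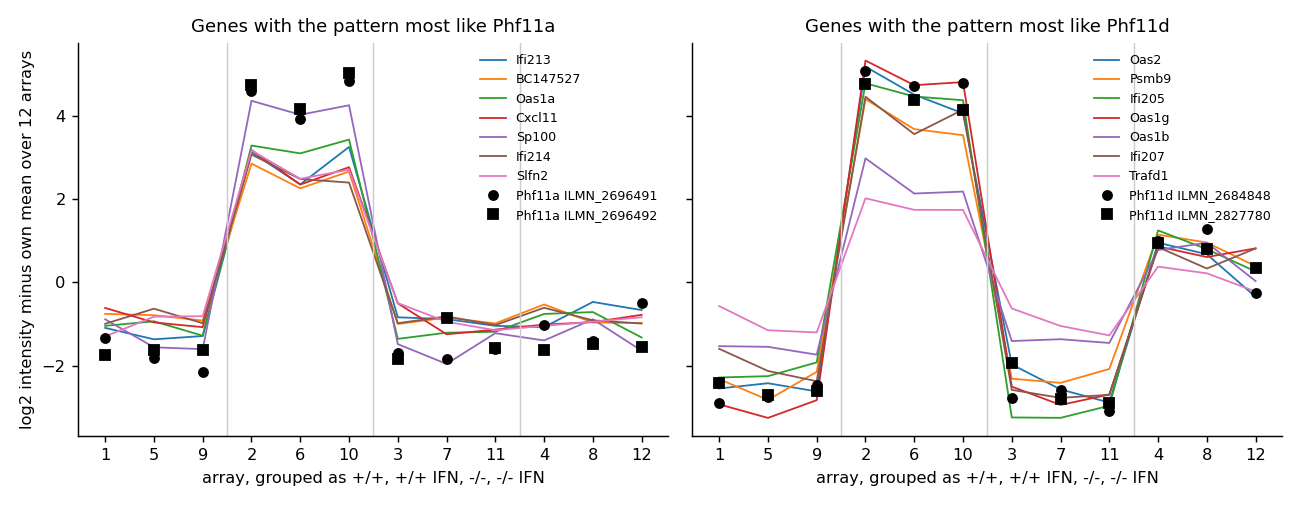
Log2 intensity minus the gene's own mean over 12 arrays (y axis) on each array, grouped by genotype and treatment (x axis), for the genes most like Phf11a (left, lines) and Phf11d (right, lines) with the member probes as black symbols. The lines on the left stay near the untreated level in IFN-treated Rictor-/- cells, where all but Ifi213 and Sp100 were below background. Those on the right rise in these cells to an intermediate level.

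The neighbours of the Phf11 cluster on chromosome 14 were read as a description of the region. Of the 10 protein-coding genes on each side, 6 were measured (Sap18, Ska3, Zdhhc20, Micu2, Cab39l and Nupl1), and 0 were called by limma in any of the 5 comparisons. Of all probes 2.46% and 0.882% were called higher in the responses of Rictor+/+ and Rictor-/- cells, and 0.417% with a smaller response in Rictor-/- cells. Between the lines 8.04% were higher and 8.09% lower without IFN-alpha, and 8.65% and 10.5% with it. With 6 genes, nothing is read from the count of 0. At an unadjusted p under 0.05 the count was 0 for both responses and for their difference, 1 higher in untreated Rictor-/- cells and 2 higher in IFN-treated ones. The kinase adaptor gene Cab39l, on the far side of Setdb2, had log2 levels of 9.12, 9.47, 9.66 and 9.66 in untreated and IFN-treated Rictor+/+ and untreated and IFN-treated Rictor-/- cells. Its response was 0.35 ± 0.23 (SE, limma adjusted p = 0.736) in Rictor+/+ cells and 0.00 ± 0.23 in Rictor-/- cells. Setdb2 has no named probe and was not analysed here.

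Among 16 measured genes of interferon signalling, 7 rose and 0 fell in Rictor+/+ cells, and 4 rose and 0 fell in Rictor-/- cells. Of all probes 2.46% were called higher in Rictor+/+ and 0.882% in Rictor-/- cells. The list median was 0.49 and 0.44 on the log2 scale, against -0.047 for all probes in both lines. Stat2 rose 9.89-fold in Rictor+/+ and 5.84-fold in Rictor-/- cells (limma adjusted p = 2.34e-05 and 6.32e-04), and Irf9, its DNA-binding partner, rose 6.31-fold and 6.49-fold (2.49e-04 and 4.73e-04). The factor gene Irf7 rose by limits of at least 36.6-fold and 18.3-fold (limma adjusted p = 2.06e-07 and 2.19e-06). The feedback protease gene Usp18 rose by 8.23 ± 0.36 and 7.56 ± 0.36 (SE) on the log2 scale. Tested between the lines, the responses of 0 of 16 were called different by limma, with 1 larger and 3 smaller in Rictor-/- cells at an unadjusted p under 0.05. Of all probes 0.417% were called smaller and 0.024% larger, so the count of 0 does not show equal responses. The list median of the difference was -0.26 against -0.012 for all probes. The feedback inhibitor gene Socs1 rose 6.10-fold in Rictor+/+ cells, where it was above background on 1 of 3 untreated arrays. In Rictor-/- cells it was above background on 0 of 3 untreated and 2 of 3 IFN-treated arrays, and its change was not called.

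Between the lines 3 of the 16 genes of this list were called lower and 0 higher in Rictor-/- cells without IFN-alpha, and likewise 3 and 0 with it. Of all probes 8.09% were called lower without and 10.5% with IFN-alpha, so nothing is read from these counts. Irf1 was 2.56-fold lower in untreated Rictor-/- cells (limma adjusted p = 0.00181) and 3.91-fold lower with IFN-alpha (7.19e-05). The receptor chain gene Ifnar2 was 1.95-fold lower without treatment (limma adjusted p = 0.0241), with -0.21 ± 0.26 (SE) under IFN-alpha (0.642). The phosphatase gene Ptpn6 was at least 2.88-fold lower without treatment (limma adjusted p = 0.00463). Under IFN-alpha Socs1 was 4.39-fold lower and Usp18 2.27-fold lower in Rictor-/- cells (0.00306 and 0.036, limma adjusted p).

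Nuclear proteins induced by interferon, the group to which the Phf11 genes may be counted, were listed separately. Of 18 measured members of that list 16 rose in Rictor+/+ and 11 in Rictor-/- cells, with 0 lowered in both, and the median log2 response was 3.25 and 1.44. Of all probes 2.46% and 0.882% were called higher and 0.335% and 0.0335% lower, with a median of -0.047 in both lines. The difference of the responses was called smaller in Rictor-/- cells for 6 and larger for 1, where 0.417% and 0.024% of all probes were, with a median of -0.97 against -0.012. Batf2, Nmi and Sp140, counted among the 16, passed the filter on dim probes through the IFN-treated Rictor+/+ arrays alone. That filter favours a rise in Rictor+/+ cells for them, and Batf2 is also among the 6. Sp100 rose at least 30.4-fold in Rictor+/+ cells and was above background on 1 of 3 IFN-treated Rictor-/- arrays (difference of responses, limma adjusted p = 2.46e-05). Mndal, of the DNA-sensing Ifi200 family, had a rise of at least 7.84-fold in Rictor+/+ cells and 1 of 3 arrays above background in IFN-treated Rictor-/- cells (limma adjusted p = 0.000515).

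Others of these nuclear proteins rose in both lines. Ifi205 rose 103-fold in Rictor+/+ and at least 7.47-fold in Rictor-/- cells, and Znfx1, a helicase that binds viral RNA, rose 12.7-fold and 2.67-fold (difference of responses, limma adjusted p = 0.002 and 0.0145). Trim30a rose 88.1-fold and at least 22.8-fold, Parp14 57.2-fold and 28.1-fold, and the ubiquitin ligase gene Dtx3l 14.6-fold and 10.9-fold. For these 3 genes the difference of the responses was not called, with a limma adjusted p of 0.994 each. Other Parp14 probes raised in Rictor+/+ cells had log2 responses of 1.956 and 0.837 (ILMN_2546461) and of 2.078 and 0.455 (ILMN_1248260) in the lines. In untreated Rictor+/+ cells Ifi205 and Trim30a were above background on 1 of 3 arrays each, so their Rictor+/+ folds start near the limit of detection. Trim25, the ligase that acts on RIG-I, was below background on all Rictor+/+ arrays and rose 5.44-fold in Rictor-/- cells (difference of responses, limma adjusted p = 0.000593). Sp140, which carries a PHD finger itself, was above background on the IFN-treated Rictor+/+ arrays only, and it passed the filter on dim probes through that group alone; its level there was at least 2.17-fold above that of untreated cells.

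**Figure D4:**
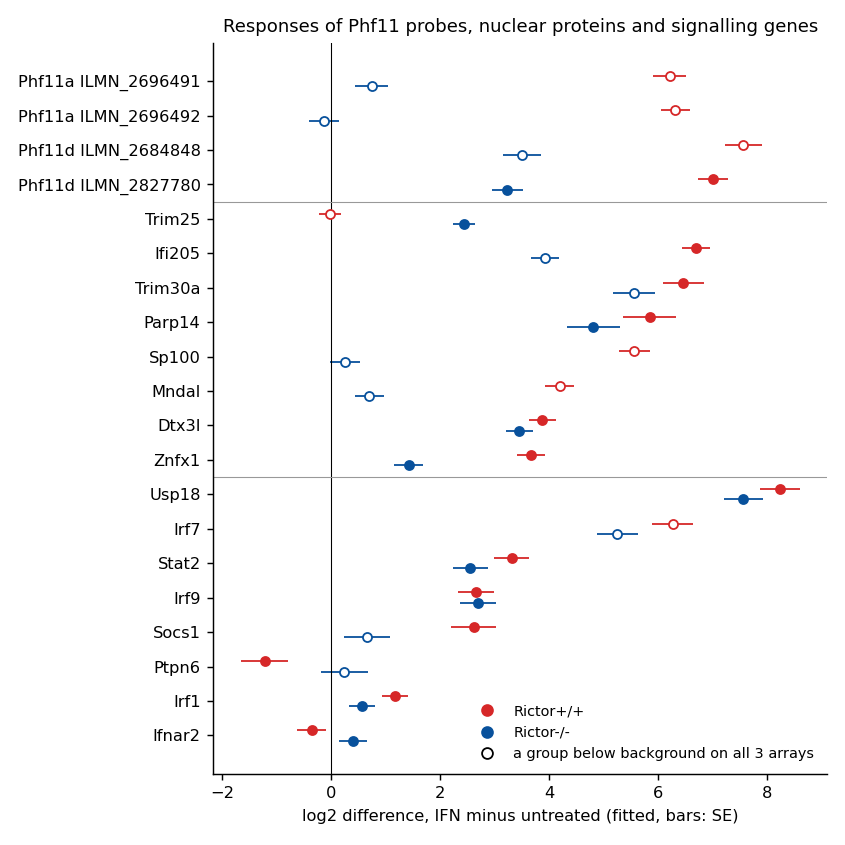
Fitted log2 difference between IFN-treated and untreated cells (x axis, bars are SE, n = 3 arrays per group) in Rictor+/+ (red) and Rictor-/- cells (blue) for the 4 Phf11 probes, 8 interferon-induced nuclear proteins and 8 signalling genes. Open symbols mark a comparison with a group below background on all 3 arrays; Irf9 lies at 2.66 and 2.70 in the lines, while the Phf11a probes, Sp100 and Mndal lie between -0.13 and 0.74 in Rictor-/- cells.

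Macrophage markers were read beside the Phf11 genes. Of 10 listed markers 4 have a named probe. Their summed intensity was 712.1 to 1396.2 in untreated and 5858.2 to 7611.1 in IFN-treated Rictor+/+ cells, and 1313.2 to 1562.1 and 797 to 2596 in Rictor-/- cells. The rise in Rictor+/+ cells came from Mpeg1, which was below background in all untreated cells and at log2 levels of 11.70 to 12.60 and 7.32 to 7.77 with IFN-alpha. The lysozyme gene Lyz2 was below background on all 12 arrays. Cd14 was above background on all 12 arrays, and was 3.92-fold higher in Rictor-/- cells without and 5.93-fold higher with IFN-alpha (limma adjusted p = 5.43e-05 and 3.99e-06). Csf1r, which encodes the receptor that macrophages depend on, was near the limit of detection, at 5.91 to 6.60 in IFN-treated Rictor+/+ cells against 6.25 to 6.79 without treatment. Of T cell, B cell and epithelial markers, 2 of 7, 0 of 5 and 1 of 4 have a named probe. Their part in the Phf11 values was not tested.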

How the data were processed

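Total RNA was measured on 12 arrays in 4 groups of 3, and groups were taken from the sample labels. Bead intensity of 45281 probes, without background subtraction, was deposited as a first table; per the labels' processing notes the authors used BeadStudio. The authors' second deposited table holds normalized log2 values of 17003 probes by a method not given in the sources used here. Gene names come from the platform annotation of those probes, of which 14461 name 1 gene, 5 several and 2537 none, with symbols updated through RefSeq. The members and gene lists were chosen with earlier results of these data known.

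With R 4.3.3 and limma 3.58.1, the mode of each array's signals was taken as background, with an SD from the signals below it. Normexp correction with an offset of 16, quantile normalization and log2 followed. A probe was kept when above background (probability under 0.01) on at least 3 arrays, which left 20865 probes, 11874 of them naming 1 gene. One limma fit with a mean per group (8 residual and 4.67 prior degrees of freedom) gave 5 two-sided comparisons, adjusted by Benjamini-Hochberg over all kept probes and called at 0.05. The brightest kept probe stood for each listed gene and for each gene compared for likeness. Where 1 group was below background on all its arrays, a fold is a lower limit. P-values measure only the spread between these arrays, and their number limits the precision. The fit was tested on simulated data. Genes named are all member probes, up to 8 called genes per list by size of change, and the 5 genes most like each probe. The 3 promoter motifs and the alignment (biopython 1.88) were chosen after the sequences were seen. Alternatives changed the background correction, scaling, filter, weights, background set and arrays used.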

Additional observations from a re-analysis of the deposited data

Results flagged for a closer look

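The difference of the responses to IFN-alpha was called between the lines for 6 of the named list genes and cell type markers. List genes were named by size of change, up to 8 called genes per list, so this count depends on that rule. Batf2 and Zbp1, from the list of nuclear proteins, were also called (limma adjusted p = 0.0263 and 0.0355) but fell outside its 8. Over all probes this difference was called negative for 0.417% and positive for 0.024%. Nothing is read from the count of 6. The Phf11 family and the genes named only for their likeness to it were chosen for such a pattern and are left out. Sp100 and Ifi205 are kept as list genes, but they also stand among the genes most like a Phf11 probe. The gene lists were chosen with earlier results of these data known, so the adjusted p-values are not free of selection. The IFN-treated Rictor+/+ arrays alone would have carried Sp100 and Mndal past the filter on dim probes. Sp100 and the macrophage marker Mpeg1 (limma adjusted p = 2.46e-05 each), Mndal (5.15e-04), Ifi205 (0.002) and Znfx1 (0.0145) responded less in Rictor-/- than in Rictor+/+ cells. Trim25 (5.93e-04) was called with a larger response in Rictor-/- cells, which alone carried it past the filter on dim probes. Its signal was below background on all 6 Rictor+/+ arrays, so no response was measured in that line. For Znfx1 the difference was -2.25 ± 0.37 (SE) on the log2 scale. For the other 5 of the 6 named genes at least 1 group was below background on all its arrays, so that no size is given. With 3 arrays per group no test for a single deviating array was made.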

How the results depend on the processing

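The 12 reported log2 differences of member probes were recomputed under 10 other settings and 12 times with 1 array left out. Of 264 values 259 kept their sign, and the others belong to the untreated lines' difference in Phf11d, which was not called. In 231 the value moved by less than the SD between arrays. Named in the order ILMN_2696491, ILMN_2696492, ILMN_2684848 and ILMN_2827780, the responses in Rictor+/+ cells (limits for the first 3 probes) were 3.61, 3.54, 5.04 and 5.62 with no background correction, 4.58, 4.51, 6.05 and 6.54 with an offset of 50, and 3.80, 3.73, 5.17 and 5.57 in the deposited values. In the low background set they were 6.02 and 5.94 for Phf11a. Under IFN-alpha the lines' difference in Phf11a (limits) was -3.54 and -3.47 with no correction, -4.47 and -4.39 with an offset of 50, and -3.72 and -3.66 in the deposited values, and -5.38 for ILMN_2696492 with cyclic loess. The Rictor-/- response of ILMN_2684848 (limit) was 1.38 with no correction, 1.45 in the deposited values and 3.10 with array weights. That of ILMN_2827780 was 2.08, 2.07, 2.82 with an offset of 50 and 2.86 in the high background set. For this probe the difference of the responses was -4.15 with median scaling and -4.27 and -3.33 in the high and low sets, the lines differed by -4.12 under IFN-alpha with median scaling, and untreated by 0.64 in the high set. With the background set as a block, the lines differed under IFN-alpha by -4.91 and -4.83 for Phf11a (limits) and by -4.01 and -3.59 for Phf11d, in the same order of probes. A background left in the signal or a larger offset compresses low levels by construction. With 1 array left out, the difference of the responses of ILMN_2827780 ranged from -3.94 to -3.46 and the Rictor-/- response from 3.06 to 3.54.

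Counts of called probes moved more. Against 584, 191, 92, 3367 and 3987 in the responses of Rictor+/+ and Rictor-/- cells, their difference, and the untreated and treated lines, array weights gave 1543, 363, 262, 8244 and 6328. The lowest counts came from single background sets, at 130, 65, 0, 746 and 912; for the difference limma called 0 in both the high and the low set, where 1633 and 536 probes had an unadjusted p under 0.05. With the set as a block the counts were 601, 204, 99, 3543 and 3976. Array weights made 58.1% of the Rictor+/+ calls rises against 88.0%, and median scaling made 19.6% of the calls between treated lines higher against 45.3%. Median scaling shifted the median of all probes to -0.28 in the difference of the responses against -0.012. No paired analysis was possible because the groups share no replicate number and no label names a shared culture, day or batch.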

Other observations

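Other PHD finger genes were listed as well. Of 25 measured members of that list, 1 was called higher in Rictor+/+ cells (Sp140, kept through that group alone) and 0 were called in Rictor-/- cells by limma, where 0 also had an unadjusted p under 0.05. Of all probes 2.46% and 0.882% were called higher in these responses and 0.335% and 0.0335% lower, so nothing is read from the counts. Between the untreated lines 2 were higher and 5 lower in Rictor-/- cells, against 8.04% and 8.09% of all probes. Phf19, a subunit associated with Polycomb repressive complex 2, was 4.89-fold higher without and 4.98-fold higher with IFN-alpha (limma adjusted p = 0.0021 and 0.00159), and Phf13 was 1.94-fold higher without it (0.0117). Jade1 was 2.27-fold lower without IFN-alpha (limma adjusted p = 0.0064), Phf10, a subunit of the PBAF remodelling complex, 1.97-fold (0.00248), and Ing2 1.95-fold (0.0137). The maintenance methylation factor gene Uhrf1 was 2.49-fold lower without IFN-alpha (limma adjusted p = 0.00834) and the histone demethylase gene Kdm5b 2.01-fold lower with it (0.00339).

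Of 8 genes reported as partners or targets of human PHF11, 4 were measured, and 0 were called by limma in the responses to IFN-alpha. Of all probes 2.46% were called higher in Rictor+/+ and 0.882% in Rictor-/- cells, so nothing is read from 0 of 4. At an unadjusted p under 0.05, 1 was lower in Rictor+/+ and 0 in Rictor-/- cells. Each replication protein A gene was called in 1 of the 2 comparisons of the lines, where 8.09% of all probes were lower without and 8.65% higher with IFN-alpha. Rpa1 and Rpa3 were 2.22-fold and 1.74-fold lower in untreated Rictor-/- cells (limma adjusted p = 0.0144 and 0.0365; 0.26 and 0.903 with IFN-alpha). Rpa2 was 1.86-fold higher with IFN-alpha (limma adjusted p = 0.0432; 0.631 without it).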
